A study of Mus musculus with 1049 samples.

Results

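Newborn dermal fibroblasts with Dlk1 mRNA were compared with newborn dermal fibroblasts in which no Dlk1 read was found. The groups were chosen on the measured Dlk1 level of each cell: cells with at least 10 Dlk1 CPM (counts per 1e+06 reads on genes) were Dlk1-positive and cells with 0 Dlk1 reads were Dlk1-negative. Of 249 newborn cells that passed the quality limits, 74 were Dlk1-positive and 162 Dlk1-negative, and 13 cells with a Dlk1 level above 0 and under 10 CPM entered neither group. The whole series held 735 such cells from newborn, young (2 months) and old (18 months) C57Bl/6 mice. All newborn cells came from untreated C57Bl/6 mice of 1.5 or 2.5 days, were sorted as single fibroblasts from skin freed of its subdermis, and were profiled with Smart-seq2, which reads full-length polyadenylated RNA from 1 cell per well. The sort stain covered CD45, CD117, EpCam, CD24, CD31, CD34 and Pdgfra, and CD24 was not used to remove cells. For the wells used here the labels give age and experiment, but no mouse and no sex, and they do not say that these wells were sorted by Dlk1 protein. They describe a separate antibody panel with Dlk1, CD26 (Dpp4) and Sca1 (Ly6a) for newborn subpopulations.

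Dlk1 encodes a membrane protein of the Notch ligand family with EGF-like repeats, which lacks the domain that canonical ligands use to activate Notch and can be shed from the cell surface by proteases. It is known as preadipocyte factor 1, an inhibitor of fat cell formation, is expressed from the paternal allele of an imprinted locus that also holds the maternally expressed non-coding RNAs Meg3, Rian and Mirg, and is largely a gene of fetal and early postnatal tissue. In mouse skin it is used as a marker of the fibroblasts of the lower dermis, which form the reticular dermis and the hypodermis, as opposed to the papillary fibroblasts beneath the epidermis.

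In experiment 1, 49 of 158 newborn cells (31.0%, 95% exact binomial interval 23.9 to 38.8%) were Dlk1-positive, and in experiment 2, 25 of 91 (27.5%, 18.6 to 37.8%). Intervals of this kind cover the counting of cells only. The share of positive cells lay between 18.8 and 40.6% on the 5 plates of experiment 1 and between 25 and 30.0% on the 4 plates of experiment 2, so each of the 9 plates held cells of both groups. Among positive cells the Dlk1 level reached from 10.6 to 865 CPM with a median of 60.0 CPM, and the medians of experiments 1 and 2 were 53.0 and 74.2 CPM. The 3 positive cells nearest the threshold had 10.6, 12.2 and 13.1 CPM, and the 2 cells just under it had 8.47 and 8.00 CPM. A cell with 0 reads may still hold Dlk1 mRNA. After each cell was thinned to 100000 reads, 72 of the 74 positive cells kept a Dlk1 read, against 4 of the 13 cells in between.

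**Figure D1:**
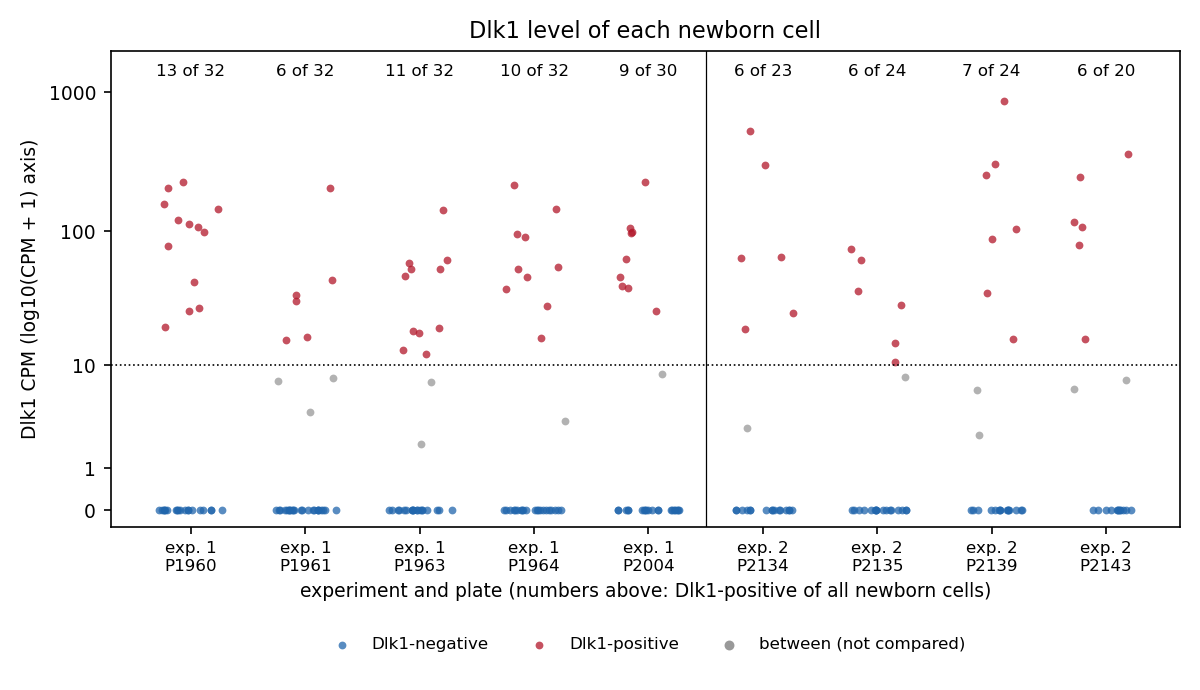
Dlk1 CPM of every newborn cell on a log10(CPM + 1) axis, by experiment and plate; each point is 1 cell and the dotted line is the 10 CPM threshold. Positive cells occur on all 9 plates, from 6 of 32 to 13 of 32 cells in experiment 1, and reach 865 CPM in experiment 2.

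Depth was similar in the groups. Median gene reads per positive and negative cell were 949961 and 1056170 in experiment 1 and 1345080 and 1185190 in experiment 2. The median count of genes detected, after thinning to equal reads, was higher in positive cells in both experiments, at 1889 against 1758 and 2241 against 2180. Mitochondrial genes held a median of 3.26 and 3.28% of the reads in experiment 1 and 2.93 and 4.21% in experiment 2. Cells are not independent replicates, so the reads of each group were added within each experiment, which gave 4 sums of 50646679 and 32502060 reads (positive, experiments 1 and 2) and 112697699 and 79862139 reads (negative).

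The Dlk1 gene lies on chromosome 12 at 109452823 to 109463336 (GRCm38, plus strand). Its promoter is shown with those of 3 genes that were higher in Dlk1-positive sums and of 1 that was lower, since these genes are turned to repeatedly below. The windows come from RefSeq on build GRCm38.p6, run 5′ to 3′ on the strand of the gene, and hold the 250 bases before and 50 bases after the annotated start. Capitals mark the letters TATAAA or CCAAT or the letters GGGCGG on either strand. Dlk1 is chr12:109452573-109452872 (plus), C1qtnf3 chr15:10952082-10952381 (plus), Col1a2 chr6:4505368-4505667 (plus), Pdpn chr4:143299515-143299814 (minus) and Col7a1 chr9:108953336-108953635 (plus).
Dlk1: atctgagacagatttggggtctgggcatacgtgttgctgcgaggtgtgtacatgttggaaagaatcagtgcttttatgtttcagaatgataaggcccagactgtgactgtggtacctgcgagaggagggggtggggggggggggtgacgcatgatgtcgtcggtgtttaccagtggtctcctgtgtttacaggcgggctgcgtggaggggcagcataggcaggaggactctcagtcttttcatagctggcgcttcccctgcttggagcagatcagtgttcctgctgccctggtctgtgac
C1qtnf3: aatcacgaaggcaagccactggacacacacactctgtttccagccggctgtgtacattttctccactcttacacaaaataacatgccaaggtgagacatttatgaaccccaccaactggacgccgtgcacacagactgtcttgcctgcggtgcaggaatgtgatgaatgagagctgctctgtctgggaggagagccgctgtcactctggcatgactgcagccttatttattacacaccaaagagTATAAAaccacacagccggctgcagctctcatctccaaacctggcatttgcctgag
Col1a2: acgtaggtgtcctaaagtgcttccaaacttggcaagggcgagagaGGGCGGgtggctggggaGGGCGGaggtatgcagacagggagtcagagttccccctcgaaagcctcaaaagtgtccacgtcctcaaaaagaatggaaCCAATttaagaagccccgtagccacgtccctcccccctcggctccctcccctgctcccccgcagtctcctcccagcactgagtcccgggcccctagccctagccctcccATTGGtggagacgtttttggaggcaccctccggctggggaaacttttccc
Pdpn: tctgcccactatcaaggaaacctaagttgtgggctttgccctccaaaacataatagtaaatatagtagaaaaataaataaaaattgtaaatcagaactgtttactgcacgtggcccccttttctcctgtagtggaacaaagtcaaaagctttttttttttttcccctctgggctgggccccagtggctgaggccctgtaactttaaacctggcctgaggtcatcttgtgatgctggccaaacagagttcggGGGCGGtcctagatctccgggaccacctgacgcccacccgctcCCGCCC
Col7a1: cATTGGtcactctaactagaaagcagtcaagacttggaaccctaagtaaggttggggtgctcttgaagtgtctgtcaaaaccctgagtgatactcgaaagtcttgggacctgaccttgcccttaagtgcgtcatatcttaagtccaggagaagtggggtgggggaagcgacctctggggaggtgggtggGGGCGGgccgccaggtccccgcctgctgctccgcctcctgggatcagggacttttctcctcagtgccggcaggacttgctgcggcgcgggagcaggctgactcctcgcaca
Of 32851 RefSeq windows of 300 bases, 13.6% hold TATAAA, 37.4% CCAAT and 35.7% GGGCGG on either strand. The Dlk1 window holds none of these letters in a row. TATAAA occurs once in the C1qtnf3 window, CCAAT in the Col1a2 window (2 matches) and the Col7a1 window (1 match), and GGGCGG in those of Col1a2 (2 matches), Pdpn (2 matches) and Col7a1 (1 match). These matches describe the letters only.

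The comparison asked which other genes differed between Dlk1-positive and Dlk1-negative cells of the same experiment. Of 6056 genes read in at least 10 of the compared cells of each experiment, 0 (0%) passed an adjusted p of 0.05 in edgeR's quasi-likelihood test with the experiment as a block, and 470 had an unadjusted p under 0.05. DESeq2 with the same genes and block called 97 genes higher and 179 lower in positive cells, limma on the mean log2 level per cell called 0, and edgeR on the 3487 genes read in at least 20 cells of each experiment called 7 higher and 1 lower. The differences below are therefore given as values that did not pass the main test. The edgeR p-values rest on 2 experiments. With the block, they measure how far the difference between the groups varied from 1 experiment to the other. That spread was moderated across genes (residual degrees of freedom 1, median prior degrees of freedom 3.27). As background for the counts that follow, 4.08% of all genes tested were higher and 3.68% lower at an unadjusted p under 0.05, and 3.47% were at least 2-fold higher and 4.62% at least 2-fold lower in both experiments. By sign alone, 26.7% of all genes tested were higher and 29.3% lower in both experiments. The sum of positive cells was the higher one on all 9 plates for 0.627% of the genes and the lower one on all 9 for 2.26%. The median log2 fold change over all genes tested was -0.04, and -0.22 without TMM scaling. Levels are CPM after TMM scaling unless stated.

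The 12 genes named on the higher side, chosen by smallest p among those with one direction in both experiments, were Ly6a, Smoc2, Lox, C1qtnf3, Dpep1, H19, Mgst1, Col1a2, Gstm2, Dcn, Efemp1 and Pdpn, with adjusted p between 0.269 and 0.321. Of the 12, 10 passed DESeq2's adjusted threshold; Col1a2 and Dcn, the 2 most abundant, did not. Ly6a, the surface antigen Sca1, on chromosome 15 at 74994877 to 74998031, stood at 236 and 604 CPM in the positive sums of experiments 1 and 2 and at 18.8 and 53.7 CPM in the negative sums. Both positive values lay above both negative ones, with a log2 fold change of 3.57 ± 0.29 (n = 2 experiments). Here and below, the value after ± is an approximate SE worked back from edgeR's test. It is the log2 fold change without its sign, divided by the square root of the moderated F. DESeq2 gave a larger SE for Ly6a, 0.54. Ly6a has neighbours of related sequence, and how any reads shared between genes were counted is not given, so its level is uncertain to that extent.

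C1qtnf3, a secreted protein of the C1q and TNF family, was the most abundant of the genes with a large difference: 6631 and 5204 CPM in positive sums against 960 and 413 CPM in negative sums, a log2 fold change of 3.22 ± 0.29. Its level varied widely within the positive group. The median positive cell had 1881 CPM in experiment 1 and 1154 in experiment 2, the highest had 37001 and 40556, and a read was found in 65.3 and 72.0% of positive cells against 26.5 and 18.3% of negative cells. In negative cells the median was 0 in both experiments, and the highest cells had 23261 and 6973 CPM, so single cells of the groups overlapped.

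Smoc2, a matricellular calcium-binding protein, had 615 and 720 CPM in positive sums and 79.1 and 105 CPM in negative sums (log2 fold change 2.87 ± 0.24). Lox, the enzyme that cross-links collagen and elastin, had 803 and 1384 against 178 and 274 CPM (2.26 ± 0.20). Lox was read in 53.1 and 84.0% of positive cells, and the median positive cell had 101 CPM in experiment 1 and 1010 CPM in experiment 2, against a median of 0 in negative cells of both. For the remaining genes, positive and negative means were 7.32-fold apart for Efemp1, a fibulin, 8.34-fold for Mgst1 and 6.39-fold for Gstm2, glutathione transferases, 5.53-fold for Dpep1, a membrane dipeptidase, and 4.74-fold for Pdpn, a membrane glycoprotein.

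**Figure D2:**
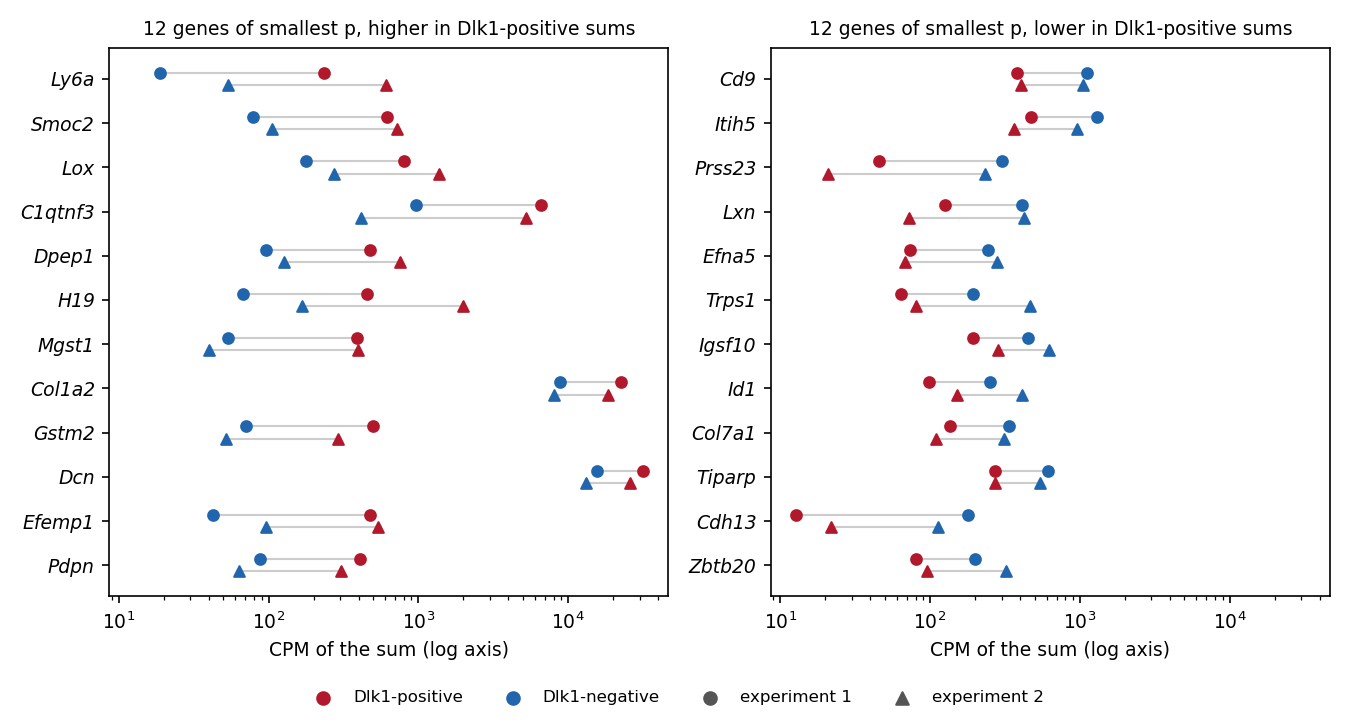
CPM (log axis) of the 24 named genes in the 4 sums. Red is Dlk1-positive, blue Dlk1-negative, circles are experiment 1 and triangles experiment 2. The genes have the smallest p among those with one direction in both experiments that met the limits on level and cells read. None passed the adjusted threshold of the main test.

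The 12 genes named on the lower side by the same rule were Cd9, Itih5, Prss23, Lxn, Efna5, Trps1, Igsf10, Id1, Col7a1, Tiparp, Cdh13 and Zbtb20, with adjusted p between 0.321 and 0.486. DESeq2 called 5 of them: Prss23, Lxn, Efna5, Trps1 and Cdh13. Cd9, a tetraspanin, was read in most cells and had 380 and 406 CPM in positive sums against 1110 and 1058 CPM in negative sums, a log2 fold change of -1.46 ± 0.19. The median negative cell had 1122 and 814 CPM of Cd9, and the median positive cell 295 and 184 CPM. Prss23, a secreted serine protease, was at 45.7 and 20.8 CPM in positive and 303 and 232 CPM in negative sums (-3.10 ± 0.41). A Prss23 read was found in 10.2 and 4.00% of positive cells and 35.3 and 36.7% of negative cells. The gene has an antisense partner, and without known strand counting their reads cannot be told apart. Lxn, a carboxypeptidase inhibitor, Efna5, an ephrin ligand, and Cdh13, a cadherin anchored by a lipid, had means 4.23-fold, 3.71-fold and 8.45-fold lower in positive sums.

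Markers of the lower dermis were on the positive side. Of 25 genes listed for the reticular and hypodermal dermis, 10 were read in enough cells to be tested. All 10 were higher in positive cells in both experiments, against 26.7% of all genes tested (for 5 of them both positive sums lay above both negative sums), 7 with an unadjusted p under 0.05, and their median log2 fold change was 1.41 against -0.04 for all genes tested. With positives at a Dlk1 level of at least 100 CPM, 1 of the 10 was at that p, and in a fit with the young and old sums, 4. Among these 10, DESeq2 called Ly6a, Gpx3 and Ccn3. Aspn, a small proteoglycan of the matrix, had 5918 and 10364 CPM in positive and 2949 and 3900 CPM in negative sums (1.21 ± 0.18). Ccn3, a matricellular protein, had 87.4 and 106 CPM against 8.8 and 24.5 CPM (2.71 ± 0.65). Gpx3, a secreted glutathione peroxidase, had 26.2 and 52.2 CPM against 3.3 and 0.2 CPM. Thbs1, a thrombospondin, had a log2 fold change of 1.37 ± 0.30. The 15 members not tested were rare: Mgp, Plac8, Pi16, Clec3b and Efhd1 were read in at most 6 of the 236 compared cells each, and Mfap5, at 59.4 and 698 CPM in positive and 6.3 and 114 CPM in negative sums, rested on 11 positive and 12 negative cells.

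Markers of the papillary dermis lay mostly on the negative side. Of 26 listed genes 16 were tested: 7 were lower and 2 higher in positive cells at an unadjusted p under 0.05, 11 were lower and 3 higher in both experiments, against 29.3 and 26.7% of all genes tested, and the median log2 fold change was -1.37. Without plate P2134, 4 were lower and 1 higher at that p, and 1 was higher without P1963, P2004 or P2135. With the filter of 20 cells 9 were tested, 3 were lower and 2 higher, and the median was -0.68; it was -0.72 in limma and -3.74 with positives at 100 CPM or more. Trps1, a GATA-type transcription repressor on chromosome 15 at 50654752 to 50890463, had 63.7 and 81.1 CPM in positive sums and 194 and 462 CPM in negative sums (-2.06 ± 0.37). Col7a1, the anchoring fibril collagen of the dermal-epidermal junction, on chromosome 9 at 108953586 to 108984875, had 136 and 109 CPM against 339 and 313 CPM (-1.42 ± 0.27). It was read in 32.7 and 32.0% of positive cells and in 64.7 and 65.0% of negative cells.

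The same side held Col23a1, a transmembrane collagen, at 1.2 and 7.1 CPM against 31.3 and 73.9 CPM, and the Wnt feedback genes Axin2, Nkd1 and Nkd2. Nkd2 had 63.5 and 28.7 CPM in positive and 190 and 163 CPM in negative sums (-2.04 ± 0.47). Tnfrsf19, a receptor of the TNF family, had 42.8 and 46.5 CPM against 127 and 129 CPM (-1.52 ± 0.46). Crabp1, which binds retinoic acid, was read in 10.2 and 0% of positive cells (0 of 25 cells allow up to 12%; here and below such limits are 3 cells of the total) and 26.5 and 23.3% of negative cells. Its unadjusted p was 0.156 in edgeR, and DESeq2 called it lower. Pdpn went the other way. It had 410 and 306 CPM in positive and 87.2 and 63.8 CPM in negative sums (2.25 ± 0.28) and was read in 69.4 and 68.0% of positive cells. The Wnt inhibitor Wif1 was the other member higher at an unadjusted p under 0.05, at 548 and 459 against 313 and 335 CPM (0.63 ± 0.23).

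**Figure D3:**
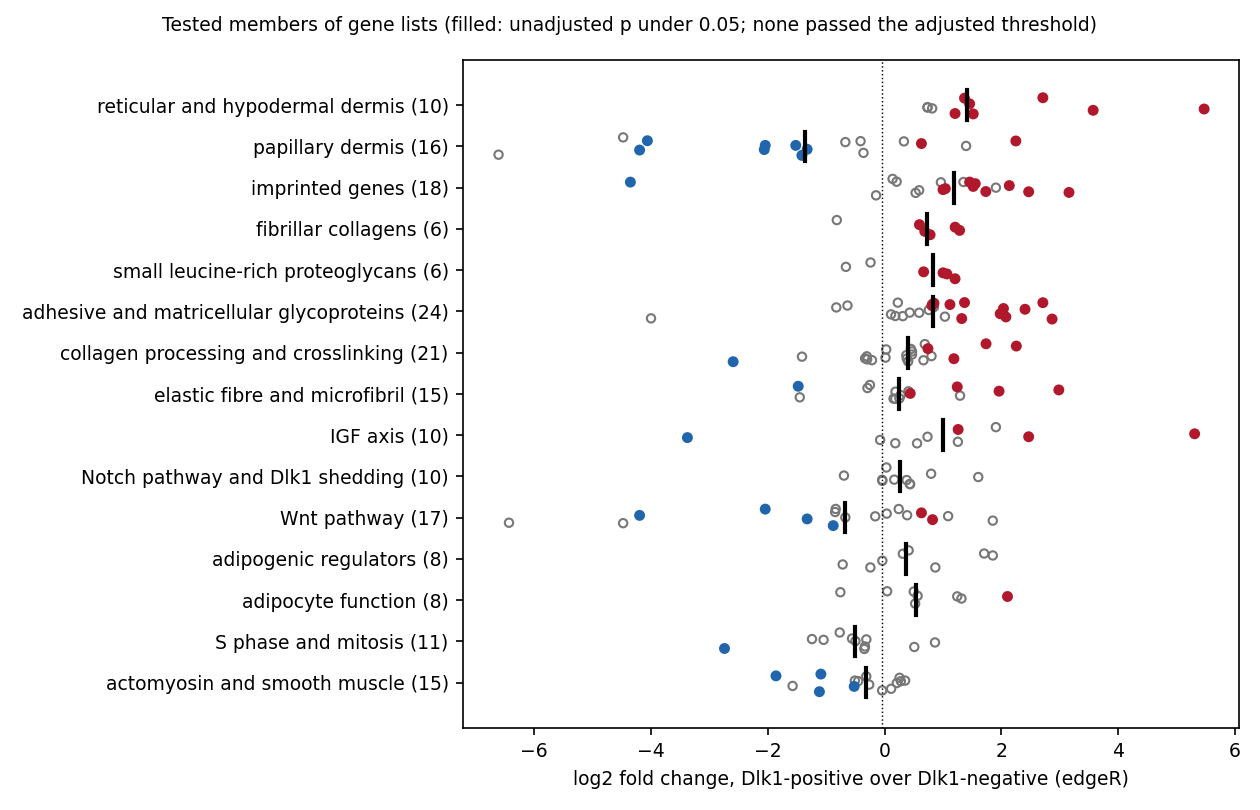
Fitted log2 fold change (Dlk1-positive over Dlk1-negative) of each tested member of 15 gene lists, with the number tested in brackets; filled points have an unadjusted p under 0.05, black bars are list medians and the dotted line is the median of all genes tested. The 10 reticular and hypodermal genes all lie to the right of 0, and the papillary median is -1.37.

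Of the antigens in the panel for newborn subpopulations, Ly6a mRNA was found in more positive cells, and the values of Dpp4 overlapped between the groups. Dpp4 (CD26) was read in 36.7 and 28% of positive cells and 42.2 and 28.3% of negative cells. Its level was 509 and 178 CPM in positive and 404 and 397 CPM in negative sums, values that overlap (-0.41 ± 0.44). Cells with a Ly6a read and no Dpp4 read made up 20.4 and 28% of positive and 3.92 and 13.3% of negative cells. Ly6a was read in 26.5 and 40.0% of positive cells (exact intervals 14.9 to 41.1% and 21.1 to 61.3%), and in 9.80 and 18.3% of negative cells (4.8 to 17.3% and 9.52 to 30.4%). Thinned to equal reads, the shares were 24.5 and 36% against 3.92 and 6.67%. Cd24a, which marks adipocyte precursors among other cells, had 65.7 and 90.3 CPM in positive and 163 and 323 CPM in negative sums (-1.57 ± 0.35). Cd34 and Pdgfra, the antigens of the sort, had log2 fold changes of -0.48 ± 0.20 and 0.41 ± 0.38.

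Imprinted genes other than Dlk1 were mostly higher in Dlk1-positive cells. Of 35 listed genes 18 were tested: 14 were higher in both experiments and 1 lower, against 26.7 and 29.3% of all genes tested, and 9 were higher and 1 lower at an unadjusted p under 0.05. Their median log2 fold change was 1.20, with 0.69 in experiment 1 and 1.82 in experiment 2. With positives at 100 CPM or more, 4 were higher and 0 lower at that p, and 0 were lower without plate P2134. The lists of imprinted and of reticular genes share 3 members, 2 of them tested (Mest and Plagl1). H19, a maternally expressed non-coding RNA on chromosome 7 at 142575529 to 142578143, had 453 and 1999 CPM in positive sums and 67.7 and 168 CPM in negative sums, a log2 fold change of 3.16 ± 0.30. It was read in 67.3 and 84.0% of positive cells and 28.4 and 33.3% of negative cells. Igf2, the fetal growth factor expressed from the paternal allele next to H19, had 83.0 and 434 CPM against 21.9 and 53.8 CPM (2.47 ± 0.46). Both RNAs were read in the same cell in 32.7 and 64.0% of positive cells and in 6.86 and 11.7% of negative cells. Levels of both were higher in experiment 2 than in experiment 1 within each group.

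Cdkn1c, a cyclin-dependent kinase inhibitor that restrains growth, had 208 and 359 CPM in positive and 67.5 and 57.2 CPM in negative sums (2.14 ± 0.42). Gnas, which encodes the stimulatory G protein subunit, had 1230 and 1897 against 554 and 489 CPM (1.55 ± 0.27) and was higher on all 9 plates. The transcription factor Plagl1 had 301 and 2792 against 155 and 720 CPM (1.46 ± 0.31), and Mest had 119 and 907 against 71.5 and 184 CPM (1.52 ± 0.46). For Plagl1 and Mest the positive sum of experiment 1 was lower than the negative sum of experiment 2, so the groups separate within each experiment and not across them. Gnas overlaps an antisense transcript, and their reads cannot be told apart without known strand counting. Nnat, a small neuronal membrane protein, was the exception at 1.6 and 1.2 CPM in positive and 31.9 and 25.3 CPM in negative sums (-4.35 ± 0.63).

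In the imprinted locus of Dlk1 itself, Meg3 and Rian were read in enough cells to be tested, and neither had an unadjusted p under 0.05. Meg3 had 42.6 and 108 CPM in positive and 36.1 and 61.2 CPM in negative sums and was read in 40.8 and 52.0% against 28.4 and 40.0% of the cells. Rian had 71.7 and 224 CPM against 47.8 and 51.6 CPM (log2 fold change 1.35 ± 0.58, unadjusted p 0.078). Mirg was read in 4 positive and 1 negative cells. Rtl1, expressed from the paternal allele like Dlk1, was read in 1 positive and 15 negative cells, and Dio3 in none of the 236. The strand setting of the counts is not given, so the strand of the Rtl1 reads is not known.

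**Figure D4:**
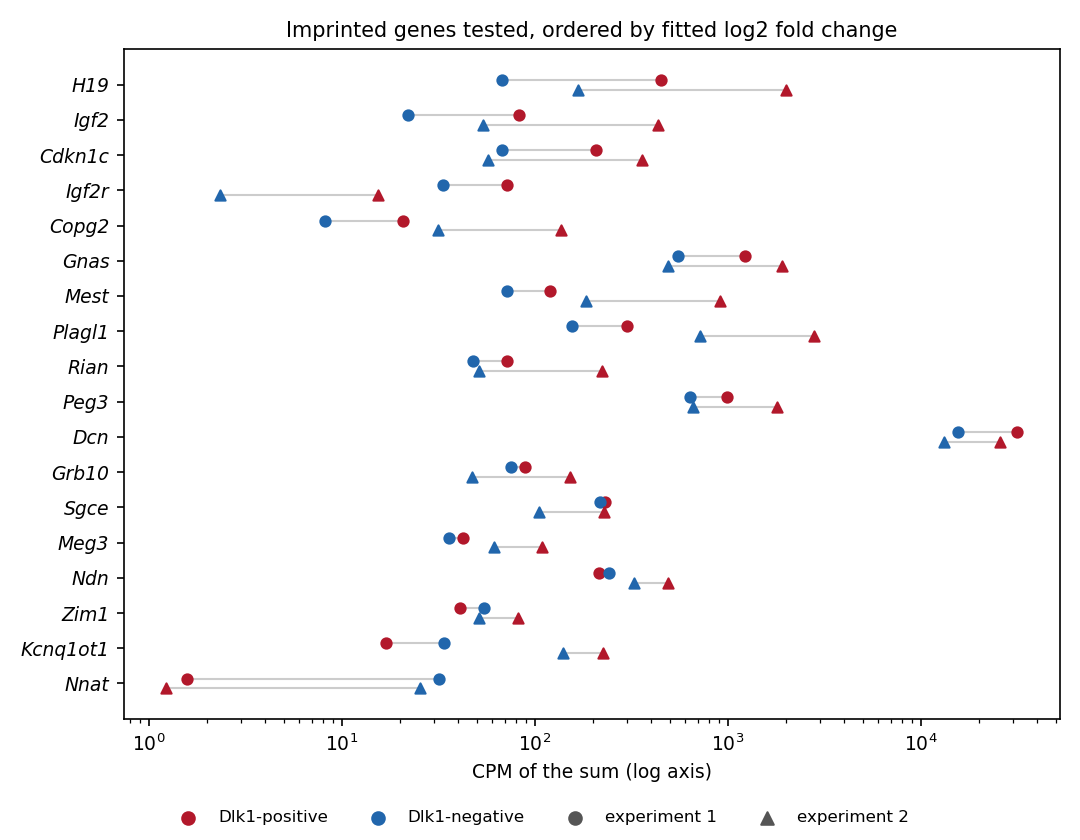
CPM (log axis) of the 18 imprinted genes tested in the 4 sums, ordered by fitted log2 fold change; red is Dlk1-positive, blue Dlk1-negative, circles experiment 1 and triangles experiment 2. H19 and Igf2 lead on the positive side, and Nnat stands alone on the negative side.

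Most fibrillar collagen genes had higher levels in positive sums, and genes of collagen processing went both ways. Collagen genes took 9.33 and 7.61% of all gene reads in positive sums and 5.43 and 4.81% in negative sums. Of 6 fibrillar collagen genes tested 5 were higher at an unadjusted p under 0.05 (median log2 fold change 0.73), or 3 without plate P2135, without the replicate block or without TMM factors, and DESeq2 called none. Col1a2, on chromosome 6 at 4504814 to 4541544, had 22609 and 18515 CPM in positive and 8817 and 7993 CPM in negative sums (1.29 ± 0.13). Every positive cell held Col1a2 reads, with medians of 20779 and 14962 CPM against 7355 and 5744 CPM in negative cells. Col1a1 had 22946 and 15367 against 8611 and 7662 CPM (1.21 ± 0.17), and Col3a1 43717 and 40054 against 25567 and 23221 CPM (0.78 ± 0.12). Among other collagens the direction varied: Col12a1 and Col4a1 were higher, and Col7a1, Col23a1 and Col6a3 lower, at an unadjusted p under 0.05. In this list 0 genes were higher without plate P1960 or P2139, and 1 was lower without P2134.

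Of 21 genes of collagen processing and cross-linking 4 were higher and 1 lower at an unadjusted p under 0.05, and 11 were higher and 5 lower in both experiments. The median log2 fold change was 0.40, with 0.66 in experiment 1 and 0.08 in experiment 2, and 0.08 without plate P2139. Beside Lox these were Pcolce, which enhances the trimming of procollagen, with 794 and 1625 CPM against 279 and 415 CPM (1.74 ± 0.22), Crtap (1.19 ± 0.25), Loxl1 (0.74 ± 0.22) and, lower, Loxl3 (-2.59 ± 0.49). Of 6 small leucine-rich proteoglycans 4 were higher at an unadjusted p under 0.05 (1 with positives at 100 CPM or more): Dcn, which binds collagen fibrils, at 31571 and 25848 against 15488 and 13148 CPM (1.00 ± 0.12), Aspn, Bgn (1.07 ± 0.22) and Ogn (0.67 ± 0.23). Lum, of the same family, had 15591 and 10611 CPM in positive and 15727 and 14662 CPM in negative sums (-0.24 ± 0.17, unadjusted p 0.228).

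Of 24 adhesive and matricellular glycoproteins 11 were higher and 0 lower at an unadjusted p under 0.05, with a median of 0.83; 7 were higher without plate P2139, and 5 with positives at 100 CPM or more. Thbs2, a thrombospondin, had 2289 and 2504 CPM in positive and 816 and 250 CPM in negative sums (2.41 ± 0.53), and Sparc, which binds collagen, had 15047 and 18960 against 8678 and 10170 CPM (0.85 ± 0.13). Spon1 had the opposite sign, at 1.9 and 34.4 against 144 and 119 CPM (unadjusted p 0.059), and DESeq2 called it lower. Among 15 genes of elastic fibres and microfibrils Efemp1, Mfap4, Fbn1 and Mfap2 were higher and Fbln2 lower at an unadjusted p under 0.05; with positives at 100 CPM or more 2 were higher and 0 lower, and 0 were lower without plate P2143. Mfap4 had 4083 and 4308 CPM against 1468 and 790 CPM (1.96 ± 0.30), and Eln, elastin itself, had 154 and 372 against 180 and 257 CPM, values that overlap.

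Of 10 genes of the IGF axis tested, 7 were higher and 1 lower in both experiments, against 26.7 and 29.3% of all genes tested. Their median log2 fold change was 1.00, and -0.19 with positives at 100 CPM or more. Besides Igf2, Igfbp6 and Igfbp5 were higher at an unadjusted p under 0.05, and Igf1 was lower; without plate P2134, or with positives at 100 CPM or more, 1 gene of the axis was higher at that p. Igf1, the postnatal growth factor, had 17.5 and 50.5 CPM in positive and 153 and 622 CPM in negative sums, a log2 fold change of -3.38 ± 0.33, and was lower on all 9 plates. Igf1 reads came from few cells, 14.3 and 28% of positive and 22.5 and 28.3% of negative cells. With the filter of 20 cells it was the 1 gene called lower by edgeR. Ptn, a heparin-binding growth factor, had 81.1 and 386 CPM against 7.9 and 17.6 CPM (3.91 ± 0.52), and Gpc3, a membrane proteoglycan that binds such factors, had 3710 and 5201 against 1764 and 2078 CPM (1.20 ± 0.17). Both belong to a list of HMG proteins and fetal growth regulators, of which 16 were tested. At an unadjusted p under 0.05, 3 of these were higher, Ptn, Gpc3 and Nrep (0.76 ± 0.18), and 0 lower, while 4 were higher and 9 lower in both experiments, and the median was -0.28. That median was -0.09 without plate P1960 and -0.17 without P2139, and in the fit with young and old sums 1 was higher.

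The Notch pathway, to whose ligand family Dlk1 belongs, showed no member at an unadjusted p under 0.05 among 10 tested of 32 listed, and DESeq2 called none. Without plate P2004 or P2143, 1 member was higher at that p. In experiments 1 and 2 the median log2 fold change of the 10 was -0.07 and 0.47. The target gene Hes1 had 358 and 202 CPM in positive and 321 and 237 CPM in negative sums (-0.04 ± 0.26), and the receptor Notch2 115 and 81.5 against 139 and 71.1 CPM. Adam17, a protease known to shed Dlk1, had 22.1 and 28.3 against 40.1 and 15.0 CPM. Hey1, another target, was too rare to test: it was read in 0 of 74 positive cells, which allows up to 4.05%, and in 13 of 162 negative cells. Of 17 Wnt pathway genes tested 4 were lower (Nkd1, Nkd2, Axin2, Twist2) and 2 higher (Sfrp2, Wif1) at an unadjusted p under 0.05. Without plate P2134, or with the filter of 20 cells, 2 were lower, and 1 was higher without P1960, P1963, P2004, P2134 or P2135. Of 17 TGF-beta and BMP genes, 2 were lower and 0 higher at an unadjusted p under 0.05, and the median log2 fold change was 0.18. The 2 were Id1, a target of BMP signalling, and the BMP and activin binder Fst. Without plate P1961 or P2134, 1 gene of the list was lower. At that p, 2 were higher without P2004, 1 without P1960, P1961 or P2143, and 3 in thinned cells. Fst had 27.4 and 12 CPM in positive and 129 and 160 CPM in negative sums (-2.99 ± 0.64).

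Of 24 adipogenic regulators, genes that control fat cell formation, 8 were tested, and none had an unadjusted p under 0.05 (1 was higher without plate P1960, P1961 or P1964). The median log2 fold change of the 8 was 0.90 in experiment 1 and -0.22 in experiment 2, and 3 were higher and 1 lower in both. The summed level of all 24 was 1115 and 1160 CPM in positive and 778 and 980 CPM in negative sums. That of 29 genes of adipocyte function was 1621 and 1635 against 973 and 877 CPM. Pparg, the main regulator of adipocyte differentiation, was read in 4 of 74 positive and 6 of 162 negative cells. Fabp4, a fatty acid carrier of adipocytes, was read in 6 positive and 2 negative cells, and Adipoq in none. Lpl, the lipase that frees fatty acids from lipoproteins, was the 1 gene of 8 tested adipocyte genes at an unadjusted p under 0.05, with 229 and 457 CPM in positive and 69.7 and 82.2 CPM in negative sums (2.09 ± 0.35), and DESeq2 called it higher. It was read in 30.6 and 36% of positive cells and 11.8 and 16.7% of negative cells.

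Dividing cells occurred in both groups. A read of Mki67 or Top2a was found in 10.2 and 8.00% of positive cells and 11.8 and 11.7% of negative cells, with exact intervals that overlap (3.40 to 22.2% and 0.984 to 26% against 6.23 to 19.6% and 4.82 to 22.6%). Of 11 genes of S phase and mitosis tested, 8 were lower in both experiments and 1 higher, against 29.3 and 26.7% of all genes tested. Mcm6, a subunit of the replicative helicase, was the 1 member with an unadjusted p under 0.05, at 11 and 45.5 against 142 and 160 CPM; 4 were lower without plate P2004, and 0 were lower and 1 higher without P2135. Of 15 genes of actomyosin and smooth muscle 4 were lower at an unadjusted p under 0.05, Tpm1, Cnn2, Tagln and Myl6. Leaving out any 1 of plates P1960, P1961, P2004, P2135, P2139 and P2143 left 2 lower at that p, and without P2004 1 was higher.

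The remaining lists had few members at an unadjusted p under 0.05. Of 18 regulators of the G1 phase tested, Cdkn1c and Btg2, an antiproliferative gene (1.00 ± 0.22), were higher. Of 16 matrix proteases and inhibitors, Mmp23, a metalloprotease (1.34 ± 0.23), and Htra3, a serine protease (1.28 ± 0.29), were higher, and 1 was higher without plate P1961. Of 8 FGF and PDGF genes Dusp6, a phosphatase that restrains ERK signalling, was lower (-2.67 ± 0.85), and 0 were lower without plate P1960 or P2134. Of 6 genes of the dermal papilla and condensate Vcan, the proteoglycan versican, was higher (2.04 ± 0.65). Without plate P1961, P1963, P2134 or P2139, 0 were higher. By sign, 2 of the 6 were higher and 2 lower in both experiments, and the median log2 fold change was -0.40. The 1 member that DESeq2 called was Spon1, which was lower.

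Newborn cells were also set in order of their Dlk1 level, as a description without a test. The cells in between, 7 and 6 per experiment, are too few to read alone, and the groups of at least 100 CPM hold 13 and 10 cells. Col7a1 was read in 64.7, 41.7 and 7.69% of experiment 1 cells with 0, 10 to under 100, and at least 100 Dlk1 CPM, and in 65.0, 40.0 and 20.0% in experiment 2. Prss23 was read in 35.3, 13.9 and 0% and in 36.7, 6.67 and 0% of the same cells. A count of 0 in 13 and in 10 cells allows shares of up to 23.1 and 30.0%. For Col1a2 the level without TMM scaling was 9555, 20062 and 25415 CPM in experiment 1 and 8355, 16855 and 17407 CPM in experiment 2. Smoc2 showed no such order in experiment 2, with 110, 1007 and 195 CPM. Neither did several other named genes in that experiment. Dcn had 13744, 30058 and 15330 CPM, C1qtnf3 431, 5991 and 3170 CPM, and Lox 287, 1451 and 1038 CPM. On the lower side Cd9 had 1106, 296 and 482 CPM, and Zbtb20 335, 6.80 and 200 CPM. A steady change with the Dlk1 level was therefore not general among the named genes.

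**Figure D5:**
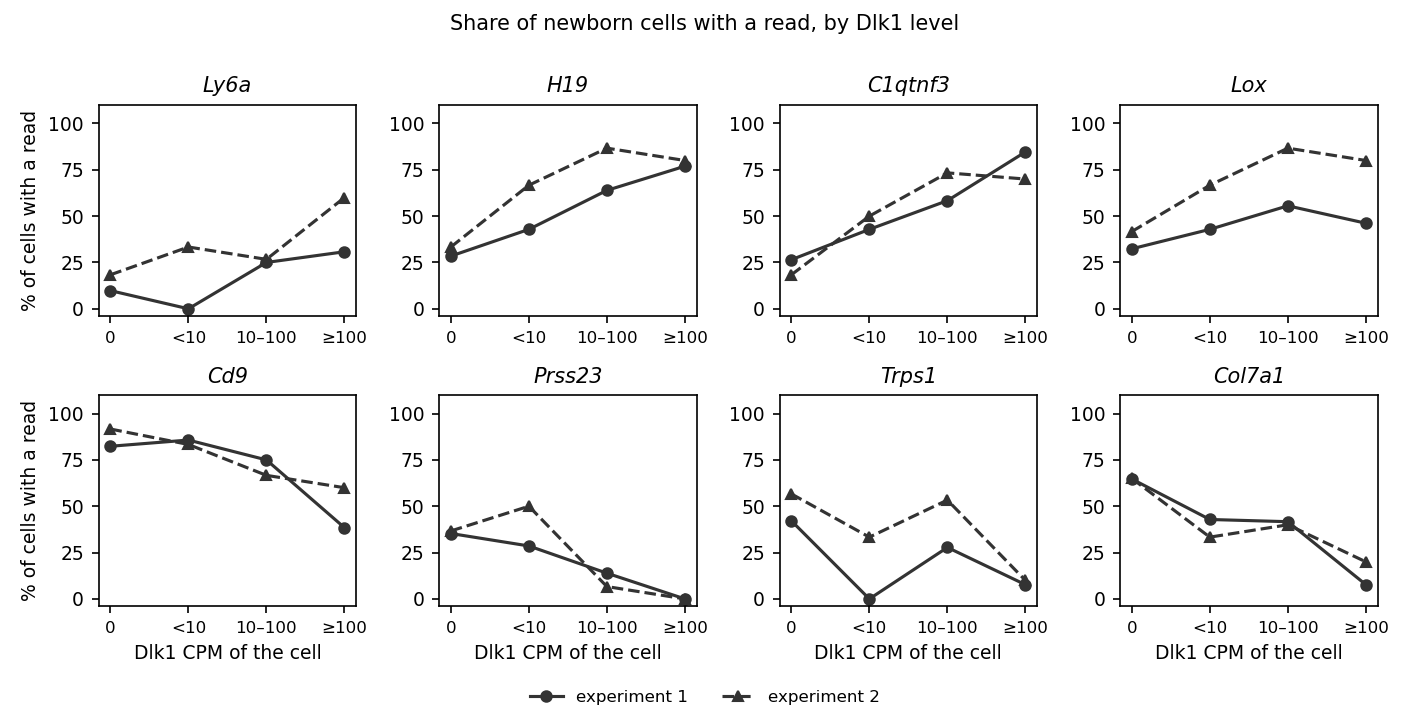
Percentage of newborn cells with a read of 8 genes, by the Dlk1 CPM of the cell; solid lines with circles are experiment 1 (102, 7, 36 and 13 cells), dashed lines with triangles experiment 2 (60, 6, 15 and 10 cells). Col7a1 was read in 64.7 and 65.0% of cells without a Dlk1 read and in 7.69 and 20.0% of cells at 100 CPM or more.

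Ranked by the lower of the Spearman correlations with Dlk1 across the 158 and 91 newborn cells, over 3029 genes, the genes most like Dlk1 were Col1a2 (0.51 and 0.49), Col1a1, Gstm2, H19 (0.44 and 0.58), C1qtnf3 (0.43 and 0.55), Serpinf1, Ccdc80, Gpc3, Thbs2 and Pdpn. These cells share plates and differ in depth, and the correlations include the cells that formed the groups, so they are a description only.

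Markers of other cell types were low in the sums, and single cells held them at higher levels, for most lists in both groups. Of the fibroblast markers, Col1a1 and Dcn had reads in 99.0% or more of the cells behind each sum. Pdgfra, an antigen of the sort, was read in fewer cells, from 30.4% (negative, experiment 1) to 56% (positive, experiment 2). All 10 listed fibroblast markers were tested, and in edgeR 4 were higher and 1 lower at an unadjusted p under 0.05. Summed CPM of the 11 endothelial markers was 25.6 and 16.3 in positive and 40.6 and 21.2 in negative sums, and that of the 12 immune markers at most 7.55. The 7 melanocyte and 8 Schwann cell markers reached at most 19.1 and 16.2 CPM, and skeletal muscle and cartilage or bone markers at most 32.5 and 43.1 CPM. Keratinocyte markers summed to 49.8 and 45.5 against 88.9 and 21.9 CPM. The 10 pericyte and mural markers summed to 86.5 and 131 against 58.3 and 57.8 CPM, and Rgs5, which defines pericytes, was at 0 in all 4 sums. Of these 10 only Ndufa4l2 was tested: it had 86.5 and 71.8 CPM in positive and 30.4 and 17.3 CPM in negative sums (1.78 ± 0.58, unadjusted p 0.033), and DESeq2 called it higher (adjusted p 0.035). Keratinocyte markers summed to at least 100 CPM in 13 of 49 and 5 of 25 positive cells and in 30 of 102 and 4 of 60 negative cells. Pericyte and mural markers reached that level in 11 and 10 positive and in 22 and 12 negative cells, and endothelial markers in 6 and 3 positive and in 10 and 3 negative cells. Skeletal muscle markers did so in 1 and 0 positive and in 4 and 7 negative cells. For cartilage or bone markers the counts were 0 and 4 against 5 and 3, and for melanocyte markers 1 and 0 against 0 and 2. Schwann cell markers reached it in 1 and 1 positive and 0 and 0 negative cells, and immune markers in 2 and 0 against 1 and 0. The highest single cells had 1456 CPM of endothelial markers, in the negative group, and 1190 CPM of melanocyte markers, in the positive group. The part of such cells in the differences above was not tested.

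Dlk1 reads were rare in adult cells. A Dlk1 read was found in 1 of 246 young cells, at 516 CPM, and in 0 of 240 old cells, which allows up to 1.25% by the limit of 3 cells. H19 had at most 40.0 CPM in the 4 adult sums.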

How the data were processed

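Each deposited table holds the raw counts of 1 plate, genes by wells, as the authors made them. GRCm38 and FastQC stand in the submitters' processing notes. Which aligner, counting program and strand setting made them is not given in the sources used. Of all counts above 0, 75.2% were even, so both mates of a fragment may have been counted; read totals may then overstate the fragments behind them. Smart-seq2 carries no molecular identifiers, so intervals and limits cover counting error only. Plates P1961 and P1962, and P2004 and P2005, correlated well by well at 0.994 and were added; 5 empty columns were left out. Cells with at least 50000 gene reads, 1000 genes and at most 25% mitochondrial reads were kept (735 of 861 wells). No doublet caller was used on these singly sorted cells. Of 51777 genes common to the plates, 51633 matched GENCODE M21 by identifier. The Dlk1 groups were summed per experiment (4 sums), and genes were tested with edgeR 4.0.16 in R 4.3.3 (TMM, robust quasi-likelihood, experiment as a block, Benjamini-Hochberg 0.05 over 6056 genes; residual degrees of freedom 1, common biological coefficient of variation 0.522). Both groups of an experiment come from the same plates, which is where the pairing comes from. DESeq2 1.42.0 and limma 3.58.1 were alternatives, limma on the mean of log2(CPM + 1) per cell. The genes named are up to 12 per direction by smallest p, with the same direction in both experiments, at least 20 CPM in the higher group and a read in at least 25% of its cells in both experiments (predicted gene models left out), beside up to 6 members of each list and any member whose role needs a value. The members of the lists, the groups and the tests were chosen with earlier results of these data known.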

Additional observations from a re-analysis of the deposited data

How the results depend on the processing

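The blocked edgeR fit called 0 genes higher and 0 lower, and the paired design changed no call: without the replicate block it also called 0 higher and 0 lower, with 402 genes at an unadjusted p under 0.05 against 470. DESeq2 called 97 higher and 179 lower, and the filter of 20 cells per experiment gave 7 higher and 1 lower. The other settings (filterByExpr, no filter, thinned cells, limma, Dlk1 thresholds of 100 CPM or any read, deeper cells, cells without Mki67 or Top2a reads, a fit with the adult sums and, chosen after seeing the data, no TMM factors) called 0 in both directions, as did leaving out each plate in turn, which gave from 0 to 0. The cause of the differing counts was not tested. With 1 residual degree of freedom, the data set no limit on small differences, and genes read in few cells rest on those cells.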
